A study of Mus musculus with 4 samples.

Results

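Chemokine genes that guide lymphocytes, and the receptors that read them, were followed through the injured mouse brain in spatial transcriptomes. The 10 genes were chosen by name from what they are known to do, out of 32245 gene symbols in the count tables. 7 of them encode ligands (Ccl5, Ccl19, Ccl21a, Cxcl9, Cxcl10, Cxcl13 and Cxcl16) and 3 encode receptors (Ccr7, Cxcr3 and Cxcr6). The assay, Visium, lays a tissue slice over an array of barcoded spots that catch its messenger RNA, and each of the 4 arrays (capture areas) carried 2 brain slices, 8 in all. Brain was snap-frozen after photothrombotic (PT) injury, in which light clots the vessels of a patch of cortex, and times are days post-injury (dpi). The first area (genotype WT) held a slice at rest and a slice at 2 dpi, the second 2 WT slices at 7 dpi, and the third 2 WT slices at 21 dpi. The fourth held 2 slices at 21 dpi from Cthrc1(creER); R26(DTA) mice, in which a tamoxifen-inducible Cre driven by Cthrc1, a gene of injury myofibroblasts, should switch on diphtheria toxin A. The study set those mice aside because no deletion was detected. Cthrc1 in their Col1a1-rich spots was 0.101 and 0.132 UMIs per 10000, against 0.219 and 0.175 in the WT slices at 21 dpi and 1.16 and 1.09 at 7 dpi. They are called deleter slices here and reported beside the WT slices. Each slice came from 1 mouse, so a time point is 2 mice at most, and rest and 2 dpi are 1 mouse each. Time also coincides with the capture area, apart from rest and 2 dpi, which share one.

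Chemokines are small secreted proteins that bind to matrix and cell surfaces and form gradients, along which cells bearing the matching G protein-coupled receptor migrate. Cxcl9 and Cxcl10 are induced by interferons and act through Cxcr3 on activated T cells and natural killer cells, Cxcl16 acts through Cxcr6, Ccl19 and Ccl21a act through Ccr7, and Ccl5 acts on T cells and monocytes and is itself made in quantity by cytotoxic lymphocytes. Cxcl13 draws B cells through Cxcr5. In the uninjured brain T cells are few and sit mainly at its borders, the meninges, choroid plexus and perivascular spaces.

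Cxcl9 and Cxcl10, the ligands of Cxcr3, lie next to each other on chromosome 5 of GRCm38 (mm10), on the minus strand at chr5:92321347-92328079 (ENSMUSG00000029417) and chr5:92346638-92348889 (ENSMUSG00000034855). Their 250 bases before the gene start, as RefSeq places it on GRCm38.p6 (chr5:92328080-92328329 and chr5:92348890-92349139, minus strand), are shown because both genes were high in the same spot class. Capitals mark the core of the interferon-stimulated response element (GAAA, any 2 letters, GAAA), searched on both strands.
Cxcl9: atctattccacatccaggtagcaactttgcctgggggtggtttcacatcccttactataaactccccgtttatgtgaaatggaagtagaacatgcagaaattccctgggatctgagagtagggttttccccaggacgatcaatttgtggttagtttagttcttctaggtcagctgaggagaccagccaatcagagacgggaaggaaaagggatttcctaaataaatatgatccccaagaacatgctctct
Cxcl10: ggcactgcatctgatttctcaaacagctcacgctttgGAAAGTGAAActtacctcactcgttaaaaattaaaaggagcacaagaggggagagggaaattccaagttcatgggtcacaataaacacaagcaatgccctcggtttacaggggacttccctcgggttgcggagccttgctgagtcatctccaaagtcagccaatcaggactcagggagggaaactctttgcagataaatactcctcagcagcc
Promoters were at hand for 7 of the 10 genes (not for Ccl5, Ccr7 and Cxcl16). The letters were found in those of Cxcl10 and Ccl19, and in 3.44% of all 32851 promoters of the same length (250 bases before to 50 after the start). In Ccl19 the letters lie before the RefSeq start but inside the gene span given below (chr4:42754525-42756577), so the 2 annotations differ there. The 2 stretches that hold them, at chr5:92349087-92349108 and chr4:42756558-42756579 on the minus strand, share the same 10 letters.
Cxcl10: gctttgGAAAGTGAAActtacc
Ccl19: gggacaGAAAGTGAAAgctcaa
No member promoter held TTCNNNGAA, the letters of an interferon-gamma activated site (8.30% of all promoters), or either of the NF-kappaB patterns searched (0.451%), in this window. The NF-kappaB patterns searched were narrow, with nearly every letter fixed, and looser forms of the site were not searched. The lack of a match therefore does not show that a promoter, that of Cxcl10 included, is without NF-kappaB sites. A match of letters is a description of the sequence and does not show binding.

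The other genes lie apart or in a pair. Ccl19 (ENSMUSG00000071005, chr4:42754525-42756577) and Ccl21a (ENSMUSG00000094686, chr4:42772860-42773993) are neighbours on the minus strand of chromosome 4, in a stretch with near-identical copies of both genes, so reads of Ccl21a in particular could be split or dropped. Each symbol had a further identifier in the tables, and that one had 0 UMIs. Ccl5 (ENSMUSG00000035042, chr11:83525778-83530518), Cxcl16 (ENSMUSG00000018920, chr11:70453983-70459984) and Ccr7 (ENSMUSG00000037944, chr11:99144196-99155077) are on the minus strand of chromosome 11. Cxcl13 (ENSMUSG00000023078, chr5:95956951-95961068) and Cxcr6 (ENSMUSG00000048521, chr9:123806475-123811760) are on plus strands, and Cxcr3 (ENSMUSG00000050232, chrX:101731535-101734269) is on a minus strand. Over all 8 slices the tables held 3995 UMIs of Cxcl16, 1787 of Cxcl10, 1532 of Ccl5, 1164 of Ccl19, 701 of Cxcl9, 149 of Cxcr6, 136 of Ccr7, 103 of Cxcr3, 71 of Cxcl13 and 55 of Ccl21a. A UMI is a unique molecular identifier, counted once per captured molecule. These totals set the precision of each gene, so that Cxcl13, Ccl21a and the receptors rest on few molecules.

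The slices held 827 to 1726 spots over tissue and 11332780 to 23677298 UMIs. The median spot had 12447 to 16158 UMIs, except at 2 dpi (2633.5). A spot holds several cells, so a level is UMIs of a gene per 10000 UMIs of all genes, and fewer cells of a type and less RNA per cell cannot be told apart. Spots with at least 5 Col1a1 UMIs per 10000 were called fibrotic (Col1a1 being a collagen gene of fibroblasts), and spots with none Col1a1-free. Fibrotic spots numbered 112 and 392 at 7 dpi, 170 and 203 in the WT slices at 21 dpi and 193 and 274 in the deleter slices, against 3 at rest and 26 at 2 dpi. As a check on the class, 6 fibroblast markers other than Col1a1 summed to 38.5 to 108 per 10000 in fibrotic and 1.23 to 1.34 in Col1a1-free spots of the 6 slices at 7 and 21 dpi. Slice 1 at 7 dpi stood apart, with a median of 4923.5 UMIs per fibrotic spot (9206.5 to 13879 in the others), 68.75% of its fibrotic spots at the tissue edge, and 19 of the 112 resting on 1 or 2 Col1a1 UMIs. The excess at 7 dpi of Cxcl9, Cxcr3 and Cxcr6, and the difference of the excess for Cxcl10 and Cxcl16, are given without it too. For the other genes the excess at 7 dpi is given with it only. All 4 areas share 1293 spot barcodes, which are array positions and not shared cells.

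At rest the genes were at 0 to 31 UMIs, and several were present in the slice at 2 dpi. Ccl5 was at 0.00122 UMIs per 10000 over the whole slice at rest (2 UMIs) and 0.0237 at 2 dpi (31 UMIs), a ratio of 19.4 with a 95% counting interval of 4.93 to 167. Cxcl10 went from 0 UMIs, which allows up to 0.00183 per 10000, to 143 UMIs or 0.109 per 10000, at least 59.6-fold higher against a floor of 3 counts. Cxcl16, a membrane-bound ligand that proteases shed, was at 0.0116 and 0.191, a ratio of 16.4 (10.3 to 27.8). Ccl19 was at 0.0190 at rest (31 UMIs) and at 0.0497 at 2 dpi, a ratio of 2.62 (1.68 to 4.16).

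These 4 were also the genes whose interval left out 1 when spots under 1000 UMIs were dropped. Cxcl9 and Cxcr3 had 0 UMIs in both slices, which allows up to 0.00183 and 0.00229 per 10000, and Cxcr6 had 0 and 1. Ccr7 had 2 and 5 UMIs, a ratio of 3.12 (0.511 to 32.8), which was not a detectable difference at this depth. The 26 fibrotic spots at 2 dpi held 0.430% of all UMIs, 0 of the 143 UMIs of Cxcl10 and 1 of the 250 of Cxcl16, too few to tell a difference from the rest of the slice. Between the same slices 8 macrophage markers went from 0.239 to 2.87 per 10000 and 6 microglia markers from 2.35 to 4.49. A list of 15 T cell markers went from 0.544 to 0.310. The 12 of them other than Trbc2, Skap1 and Cd6, a choice made after the data were seen, stood at 0.0177 and 0.0222. Choroid plexus markers went from 5.46 to 194, so the slices also differ in the tissue they cut. With 1 slice each there is no replicate check, the intervals cover counting error only, and which of the slices was at rest was read from tissue outlines.

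By 7 dpi every ligand but Ccl21a was present in both slices, and so were Cxcr3 and Cxcr6. Whole-slice Ccl5 was 0.176 and 0.210 per 10000 at 7 dpi, 0.142 and 0.131 at 21 dpi and 0.266 and 0.0900 in the deleter slices. Cxcl9 was 0.0599 and 0.128 at 7 dpi, 0.0480 and 0.0918 at 21 dpi and 0.128 and 0.0359 in the deleter slices. Both genes were above rest and 2 dpi in every one of these 6 slices, and the deleter slices spanned the range of the WT slices. Cxcl10 was highest in slice 1 at 7 dpi (0.353) and lay between 0.0786 and 0.202 in the other 5. Cxcl16 ranged from 0.308 to 0.547 and Ccl19 from 0.0460 to 0.179. Cxcl13 did not pass 0.0133 in any slice.

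The receptor genes appeared at low levels. Whole-slice Cxcr3 was 0.00533 and 0.0126 at 7 dpi, 0.0131 and 0.0106 at 21 dpi and 0.0218 and 0.00634 in the deleter slices. Cxcr6 was 0.00866 and 0.00888 at 7 dpi, 0.00972 and 0.0282 at 21 dpi and 0.0373 and 0.0110 in the deleter slices. Ccr7, carried by naive and central memory T cells and mature dendritic cells, had 0 and 7 UMIs at 7 dpi and 31, 18, 22 and 51 at 21 dpi. All 4 slices at 21 dpi thus held more Ccr7 than either slice at 7 dpi.

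**Figure D1:**
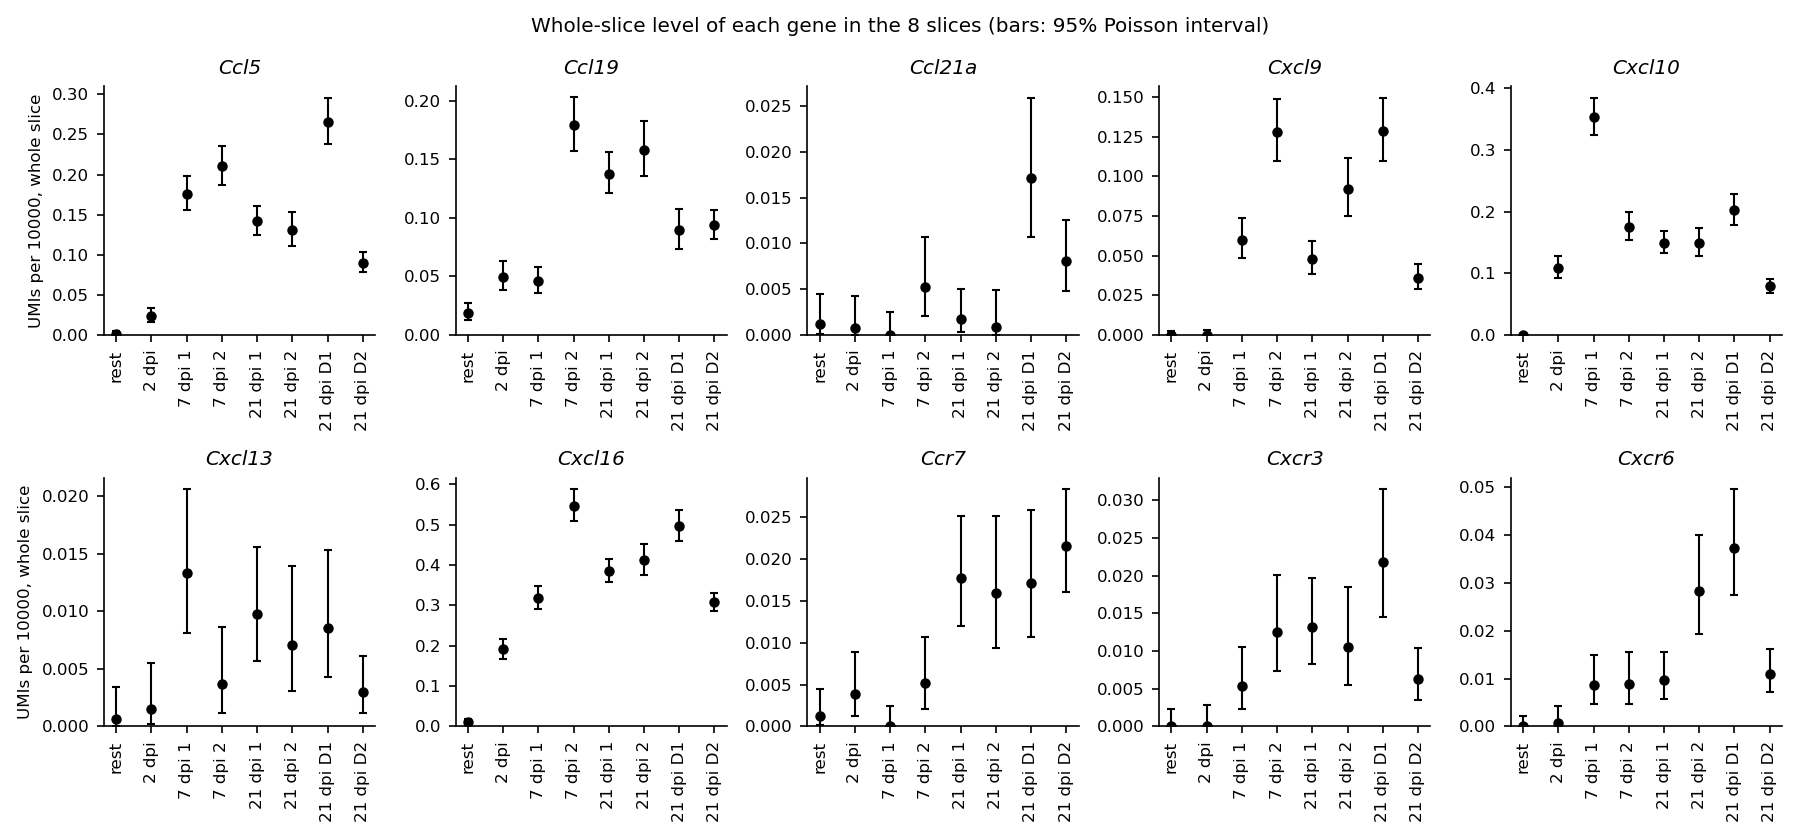
Whole-slice level of each of the 10 genes (vertical axis, UMIs per 10000, starting at 0) in the 8 slices, with D1 and D2 the deleter slices and bars the exact 95% Poisson interval, which covers counting error only. Cxcl9 sits at 0 at rest and 2 dpi and between 0.0359 and 0.128 afterwards, while Cxcl10 and Cxcl16 are already above rest at 2 dpi.

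Tissue spots of each slice were then classed by Col1a1, to ask where in the slice these genes lay. Spots with some Col1a1 but under 5 UMIs per 10000 were in neither class, 34.5% to 46.3% of spots in the 6 slices at 7 and 21 dpi. Levels in them were 0.0715 to 0.309 for Ccl5, 0.0734 to 0.388 for Cxcl10 and 0.193 to 0.446 for Cxcl16. No outline of the lesion was used, so fibrotic and Col1a1-free spots can both hold tissue outside it. For each slice the UMIs of its fibrotic and of its Col1a1-free spots were summed, and the sums were compared by the quasi-likelihood test of edgeR, with the slice as a block and Benjamini-Hochberg adjustment over 14475 genes. At 7 dpi, 7 of the 9 members that passed the filter on low counts were higher in fibrotic spots, against 22.2% of all genes tested. At 21 dpi 8 of 9 were higher, against 29.0% of all genes. Cxcl13 was too rare to be tested. A member could pass the filter through its fibrotic sums alone, so these counts are a description. Fewer members were called at 7 dpi when either slice of that time was left out. The median log2 fold change of the 9 was 3.48 at 7 dpi (2.79 with Ccr7 set to its bound) and 4.37 at 21 dpi, and the median of all genes was 0.01 at 21 dpi and closer to 0 at 7 dpi.

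Cxcl9, the interferon-gamma-induced Cxcr3 ligand, was found at higher levels in fibrotic tissue at both times. In fibrotic spots it was 0.189 and 0.344 per 10000 at 7 dpi, 0.273 and 0.294 at 21 dpi and 0.448 and 0.168 in the deleter slices. In Col1a1-free spots it was 0.0394 and 0.00256, 0.00396 and 0, and 0.00241 and 0.00628. No Col1a1-free level reached any fibrotic level of Cxcl9. Its log2 fold change was 3.67 ± 0.65 (SE; adjusted p = 0.0014, edgeR) at 7 dpi and 6.60 ± 0.85 (adjusted p = 0.000102) at 21 dpi. The value at 7 dpi was 6.98 without slice 1 and 2.34 without slice 2, whose Col1a1-free spots held 1 UMI.

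Cxcl10, the other Cxcr3 ligand, behaved differently in the tissue without collagen. Fibrotic spots had 0.413 and 0.314 per 10000 at 7 dpi, 0.639 and 0.375 at 21 dpi and 0.171 and 0.234 in the deleter slices. Col1a1-free spots had 0.311 and 0.0794 at 7 dpi, 0.0264 and 0.00606 at 21 dpi and 0.0338 and 0.0251 in the deleter slices. Fibrotic spots were above Col1a1-free spots within each of the 6 slices, but Col1a1-free spots of slice 1 at 7 dpi overlapped with the fibrotic range. Of the 221 Cxcl10 UMIs in those Col1a1-free spots, 70 lay in 1 spot, and without it the level was 0.213. The log2 fold change was 1.25 ± 0.35 at 7 dpi (adjusted p = 0.0157, edgeR) and 4.90 ± 0.43 at 21 dpi (adjusted p = 8.66e-06). The call at 7 dpi was lost without slice 2 (0.50, adjusted p = 0.383, edgeR) and when all spots under 5 Col1a1 UMIs per 10000 were the comparison (1.02, adjusted p = 0.123).

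Cxcl16, the Cxcr6 ligand, was found in fibrotic spots of all 6 slices at high counts, 67 to 459 UMIs. Levels there were 0.791 and 1.04 at 7 dpi, 1.44 and 1.25 at 21 dpi and 1.30 and 1.26 in the deleter slices, or 0.913 ± 0.173, 1.35 ± 0.133 and 1.28 ± 0.0251 (mean ± SD, n = 2 each). Col1a1-free spots had 0.225 and 0.223 at 7 dpi, 0.0937 and 0.0333 at 21 dpi and 0.0723 and 0.0617 in the deleter slices. The lowest fibrotic level lay above the highest Col1a1-free level, and fibrotic spots exceeded Col1a1-free spots by a log2 fold change of 2.11 ± 0.22 at 7 dpi (adjusted p = 6.09e-05, edgeR) and 4.37 ± 0.24 at 21 dpi (adjusted p = 4.72e-07).

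Ccl5, which attracts T cells and monocytes and is stored in cytotoxic granules, showed much the same level in fibrotic spots of every slice. It was 0.425 and 0.498 at 7 dpi, 0.519 and 0.371 at 21 dpi and 0.525 and 0.328 in the deleter slices. Col1a1-free spots had 0.118 and 0.0333, 0.0396 and 0.0151, and 0.0410 and 0.0188. The classes did not overlap, and the log2 fold change was 2.79 ± 0.38 (adjusted p = 0.000318, edgeR) at 7 dpi and 4.0 ± 0.42 (adjusted p = 2.44e-05) at 21 dpi.

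Ccl19, a Ccr7 ligand that lymph node fibroblasts are known to make, was 0.142 and 0.457 in fibrotic spots at 7 dpi, 0.519 and 0.484 at 21 dpi and 0.237 and 0.355 in the deleter slices. Col1a1-free spots had 0.0225 and 0.0307, 0.0422 and 0.0454, and 0.0338 and 0.0272. The fibrotic level at 7 dpi was lower in slice 1 than in any other slice, and every fibrotic level lay above every Col1a1-free level. The log2 excess of Ccl19 was 3.48 ± 0.36 at 7 dpi (adjusted p = 6.18e-05, edgeR) and 3.58 ± 0.29 at 21 dpi (adjusted p = 4.89e-06).

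Ccl21a, the other Ccr7 ligand, and Cxcl13, the B cell attractant, had too few UMIs for a call. Fibrotic spots held 0 and 6 UMIs of Ccl21a at 7 dpi and 1 and 0 at 21 dpi, and 14 and 10 in the deleter slices. The log2 fold change of Ccl21a was 2.26 ± 1.45 at 7 dpi (adjusted p = 0.244, edgeR) and 0.19 ± 1.81 at 21 dpi (adjusted p = 0.939). Cxcl13 had 1, 5, 6, 6, 5 and 2 UMIs in fibrotic spots of the 6 slices and 12, 0, 4, 0, 0 and 3 in Col1a1-free spots. Its pooled ratio was 1.05 (95% counting interval 0.324 to 3.02) at 7 dpi and 6.41 (1.94 to 27.3) at 21 dpi, with no test between slices.

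The levels of the receptor genes were also compared between the classes. Of all Cxcr3 in a slice, 25.0% (2 of 8 UMIs) to 83.3% (10 of 12) lay in fibrotic spots over the 6 slices. For Cxcr6 it was 38.5% (5 of 13 UMIs) to 91.7% (11 of 12). Fibrotic spots held 5.64% to 32.5% of all UMIs in the same slices. Cxcr3 was 0.0236 and 0.0250 per 10000 in fibrotic spots at 7 dpi, 0.0849 and 0.0350 at 21 dpi and 0.0545 and 0.0248 in the deleter slices. Col1a1-free spots held 1 UMI in each slice at 7 dpi, 0 in both at 21 dpi, and 1 and 3 in the deleter slices. The log2 fold change at 7 dpi was 3.53 ± 1.01 (adjusted p = 0.0201, edgeR), and that call was lost without slice 1 (3.22, adjusted p = 0.108) or slice 2 (3.90, adjusted p = 0.184, edgeR). Against the 0 UMIs at 21 dpi the pooled level was at least 20.7-fold higher (adjusted p = 0.000251, edgeR).

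Cxcr6, a receptor of tissue-resident and effector T cells, was 0.0590 and 0.0250 in fibrotic spots at 7 dpi, 0.0313 and 0.0876 at 21 dpi and 0.0934 and 0.0468 in the deleter slices. Col1a1-free levels lay between 0.00209 and 0.00606 in the same 6 slices. The log2 fold change was 3.61 ± 0.76 (adjusted p = 0.00368, edgeR) at 7 dpi, lost without slice 1 (3.22, adjusted p = 0.0681, edgeR), and 3.39 ± 0.61 (adjusted p = 0.000909) at 21 dpi.

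Ccr7 was 0 and 0.0137 in fibrotic spots at 7 dpi, 0.0849 and 0.0491 at 21 dpi and 0.0311 and 0.0606 in the deleter slices, and Col1a1-free spots held 0 UMIs in 4 of the 6 slices and 1 and 2 in the others. At 7 dpi the pooled level was at least 4.20-fold higher in fibrotic spots, which missed the threshold (adjusted p = 0.0635, edgeR). At 21 dpi the log2 fold change was 6.02 ± 0.87 (adjusted p = 0.00034, edgeR).

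**Figure D2:**
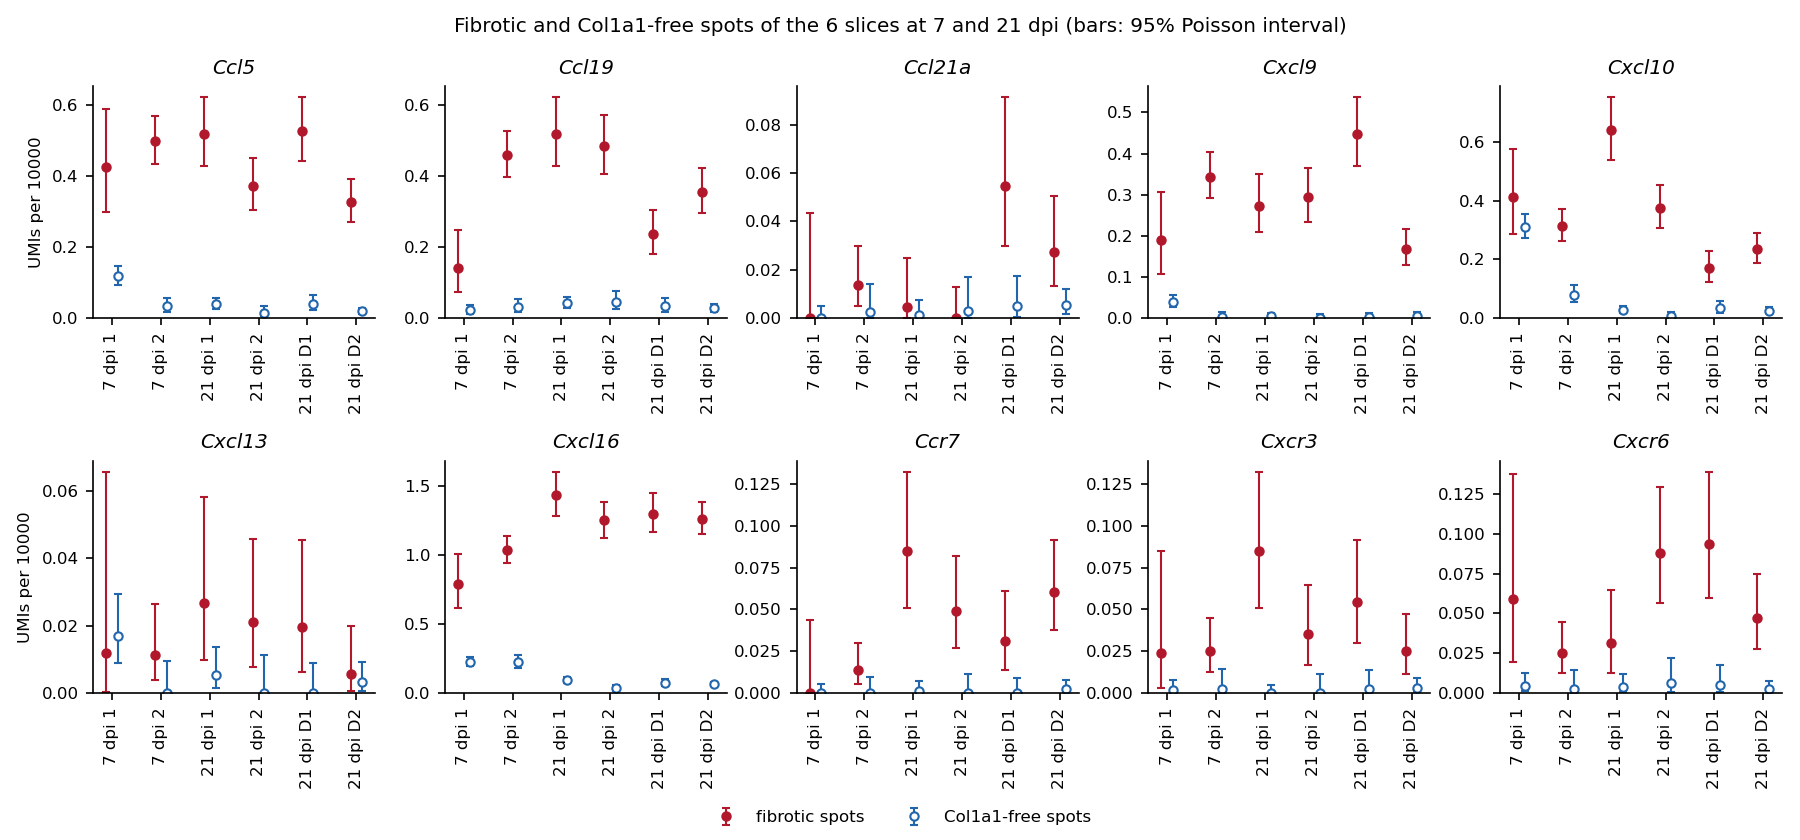
Level of each gene (UMIs per 10000, each panel with its own axis from 0) in fibrotic spots (filled) and Col1a1-free spots (open) of the 6 slices at 7 and 21 dpi, with exact 95% Poisson intervals for counting error as bars. The classes stand apart in every slice for Ccl5, Ccl19, Cxcl9 and Cxcl16, and the intervals of Cxcl10 overlap in slice 1 at 7 dpi (0.288 to 0.575 in fibrotic and 0.271 to 0.355 in Col1a1-free spots).

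Markers of immune cells differed between the same spot classes. 8 macrophage markers summed to 38.2 to 77.9 per 10000 in fibrotic and 1.41 to 7.42 in Col1a1-free spots, and 6 microglia markers to 11.8 to 24.0 and 2.81 to 9.90. Of 7 cytotoxic and natural killer markers the sums were 0.118 to 0.311 and 0.00606 to 0.0296. A T cell list of 12 markers summed to 0.106 to 0.697 and 0.0307 to 0.0723. Over the full list of 15 T cell markers the ranges overlapped (0.130 to 1.04 in fibrotic, 0.169 to 0.754 in Col1a1-free spots). Trbc2, Skap1 and Cd6, which only the full list holds, were also counted in the slice at rest, Trbc2 with 779 UMIs. The part of these cell types in the chemokine levels was not tested.

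The fibrotic excess itself differed between the time points for Cxcl10 and Cxcl16. The difference of the log2 fold changes, 7 dpi minus 21 dpi, was -3.65 ± 0.58 for Cxcl10 (adjusted p = 0.01, edgeR) and -2.26 ± 0.32 for Cxcl16 (adjusted p = 0.00667, edgeR). This made 2 of 9 members lower, against 2.72% of all genes tested. For Cxcl10 the fibrotic levels of both times overlapped, and the Col1a1-free levels were 0.311 and 0.0794 at 7 dpi against 0.0264 and 0.00606 at 21 dpi. For Cxcl16 the Col1a1-free levels were 0.225 and 0.223 against 0.0937 and 0.0333.

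The other members gave no call on the difference. It was -1.20 ± 0.59 for Ccl5 (adjusted p = 0.315), -0.10 ± 0.51 for Ccl19 (0.954), -2.93 ± 1.35 for Cxcl9 (0.285) and 0.22 ± 0.96 for Cxcr6 (0.941), all by edgeR, and wide errors leave sizeable differences possible. Without slice 1 at 7 dpi the difference was -2.84 for Cxcl10 (adjusted p = 0.0542, edgeR) and -2.09 for Cxcl16 (0.0528), so both calls were lost. Against all spots under 5 Col1a1 UMIs per 10000 they were -1.75 and -1.27, with adjusted p of 0.274 and 0.146 (edgeR).

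**Figure D3:**
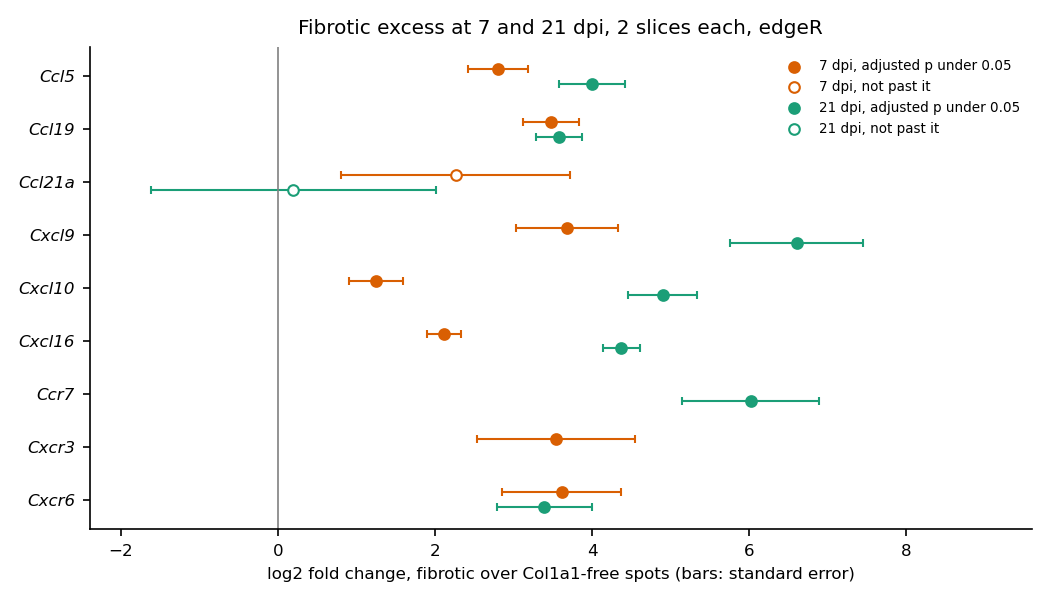
Log2 fold change of fibrotic over Col1a1-free spots (horizontal axis) for each member tested, at 7 dpi and 21 dpi (2 WT slices each), with bars for the standard error and filled points for an adjusted p under 0.05 by edgeR. Ccr7 at 7 dpi and Cxcr3 at 21 dpi are not drawn because their Col1a1-free spots held 0 UMIs, and Cxcl10 (1.25 and 4.90) and Cxcl16 (2.11 and 4.37) show the gap between the times.

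Within one class, no member passed the threshold between 7 and 21 dpi. In fibrotic spots 0 of 8 members were called by edgeR, against 4.39% of all genes, and DESeq2 called 0. By edgeR 2 of the 8 members had an unadjusted p under 0.05, and so had 2470 of all 13288 genes tested. The 2 members were Ccr7 (log2 fold change, 7 over 21 dpi, -2.50 ± 0.69, adjusted p = 0.075, edgeR) and Cxcl16 (-0.49 ± 0.16, adjusted p = 0.125). Ccl5 was at 0.12 ± 0.25 (adjusted p = 0.855) and Cxcl9 at 0.08 ± 0.40 (adjusted p = 0.953, edgeR).

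In Col1a1-free spots 4 members could be tested, and 0 were called by edgeR, against 3.14% of all genes. Cxcl10 (3.39 ± 0.73, adjusted p = 0.0536, edgeR) and Cxcl16 (1.71 ± 0.37, adjusted p = 0.0537) lay just outside the threshold, each higher in both slices at 7 dpi than in any of the 4 at 21 dpi. DESeq2 called both, at 3.46 (adjusted p = 0.000333) and 1.74 (adjusted p = 0.00881), against 3.32% of genes higher. With the deleter slices added to 21 dpi edgeR called them too (3.02, adjusted p = 0.00926, and 1.69, adjusted p = 0.00678), against 6.63% of genes higher. Ccl5 was at 1.41 ± 0.68 (adjusted p = 0.328, edgeR) and Ccl19 at -0.72 ± 0.38 (adjusted p = 0.375).

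Markers moved with these Col1a1-free levels. Macrophage markers were 5.15 and 7.42 per 10000 in Col1a1-free spots at 7 dpi and 1.41 to 2.21 at 21 dpi, and microglia markers 9.90 and 9.62 against 2.81 to 3.53. Neuron markers were 29.2 and 43.3 at 7 dpi and 46.8 to 61.3 at 21 dpi. Their part in the Cxcl10 and Cxcl16 levels was not tested, and time cannot be told apart from capture area here.

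Distance from fibrotic tissue was measured next, in steps of the spot array. Each of 5 ligands (Ccl5, Ccl19, Cxcl9, Cxcl10 and Cxcl16) was higher in fibrotic spots than over 5 steps away in each of the 6 slices, 30 of 30 profiles. Fibrotic spots held the highest level of all distances in 6 of 6 slices for Ccl19 and Cxcl9, in 5 of 6 for Ccl5 and Cxcl16 and in 3 of 6 for Cxcl10. In slice 1 at 21 dpi Cxcl16 was 1.44 in fibrotic spots, 0.710 at 1 step, 0.277 at 2 steps, 0.242 at 3 to 5 and 0.115 beyond.

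The 3 slices in which Cxcl10 peaked outside the fibrotic spots had different profiles. In slice 1 at 7 dpi it was 0.413 in fibrotic spots, 0.387 at 1 step, 0.766 at 2 steps, 0.786 at 3 to 5 and 0.146 beyond. In slice 2 at 7 dpi it was 0.314, 0.0883, 0.319, 0.0713 and 0.0797. In deleter slice 1 it was 0.171, 0.718, 0.347, 0.0593 and 0.0114. In slice 2 the highest value thus lay close to the fibrotic one, and in the other 2 slices above it. Of all Cxcl10 in slice 1 at 7 dpi, 6.60% lay in fibrotic spots, which held 5.64% of all UMIs, against 58.2% and 32.5% in slice 2.

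Cxcl10 and Cxcl9 were concentrated in few spots. One spot held 70 UMIs of Cxcl10 in slice 1 at 7 dpi and one held 77 in deleter slice 1, where 4 spots made up 50% of the total. The 10 richest spots of a slice held 41.8% to 63.1% of Cxcl10 and 47.6% to 60.6% of Cxcl9 at 7 and 21 dpi, but 11.3% to 16.0% of Cxcl16. A profile of Cxcl10 by distance therefore rests on few spots.

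**Figure D4:**
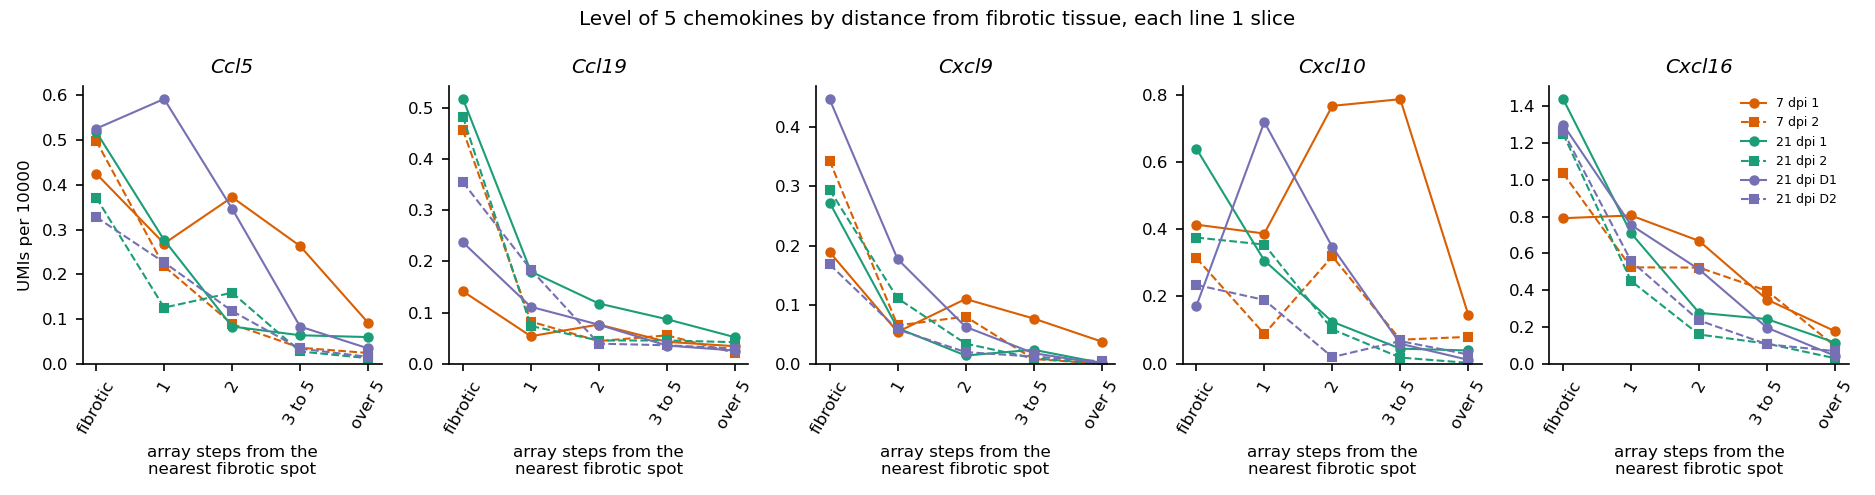
Level of 5 ligands (UMIs per 10000, each panel from 0) in fibrotic spots and at 1, 2, 3 to 5 and over 5 array steps from the nearest one, each line 1 slice. Ccl19 and Cxcl9 are highest in fibrotic spots in all 6 slices, while Cxcl10 in slice 1 at 7 dpi is highest at 3 to 5 steps (0.786).

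Inside fibrotic tissue, the chemokines lay with T cell transcripts. Fibrotic spots with at least 1 UMI of the 15 T cell markers (11 and 80 at 7 dpi, 58 and 82 at 21 dpi, 96 and 110 in the deleter slices) were compared with the remaining fibrotic spots of the same slice. By edgeR's quasi-likelihood test 7 of 7 members tested were higher in T cell spots, against 9.44% of 12290 genes tested. Cxcr3, Cxcl13 and Ccl21a were too rare to be tested. A member could pass the filter on low counts through its sums over T cell spots alone, so the count of 7 of 7 is a description. With no filter, 7 of 10 members were called higher, against 1128 of 20304 genes. None of the 10 genes was used to pick the spots, but T cells can themselves carry Ccl5, Cxcr3, Cxcr6 and Ccr7. A higher level of those genes in T cell spots is thus not independent of how the spots were picked.

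Cxcl9 was 0.256 in T cell spots against 0.174 in other fibrotic spots of slice 1 at 7 dpi, and 0.563 against 0.264 in slice 2. At 21 dpi it was 0.490 against 0.0836 and 0.499 against 0.107, and in the deleter slices 0.574 against 0.238 and 0.275 against 0.0650. All 6 slices went the same way, with a log2 fold change of 1.63 ± 0.17 (adjusted p = 8.76e-10, edgeR). For Ccl5 the pairs were 0.576 and 0.391, 0.666 and 0.438 at 7 dpi, 0.836 and 0.242, 0.601 and 0.161 at 21 dpi, and 0.624 and 0.362, 0.477 and 0.184 in the deleter slices. Every T cell value of Ccl5 exceeded every other value, and the log2 fold change was 1.19 ± 0.14 (adjusted p = 2.15e-08, edgeR).

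Cxcl10, Cxcl16 and Ccl19 were higher in T cell spots in 5 of 6 slices, with slice 1 at 7 dpi, which had 11 such spots, the other way. Cxcl10 was 1.13 against 0.209 and 0.594 against 0.174 at 21 dpi, and 0.256 against 0.449 in slice 1 at 7 dpi. Its log2 fold change was 1.47 ± 0.19 (adjusted p = 5.92e-08, edgeR). Those of Ccl19 and Cxcl16 were 0.92 ± 0.14 (adjusted p = 3.6e-06) and 0.74 ± 0.09 (adjusted p = 3.52e-08, edgeR).

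Among the receptors, Cxcr6 was higher in T cell spots in 6 of 6 slices, for example 0.137 against 0.0207 in deleter slice 1 and 0.132 against 0.0470 in slice 2 at 21 dpi (log2 fold change 1.80 ± 0.37, adjusted p = 0.00024, edgeR). Ccr7 was higher in the 5 slices that held any (1.89 ± 0.43, adjusted p = 0.000878, edgeR), with 0.135 against 0.0418 and 0.0807 against 0.0201 at 21 dpi. Cxcr3 was higher in 5 of 6 slices, with a pooled ratio of 2.12 (95% counting interval 1.25 to 3.64) and no test between slices. The widest gaps were 0.144 against 0.0334 in slice 1 at 21 dpi and 0.0686 against 0.0310 in deleter slice 1. In slice 2 at 21 dpi (0.0367 against 0.0336) and deleter slice 2 (0.0281 against 0.0217) the levels lay close, with 4 or 5 UMIs on each side.

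T cell spots were also the deeper ones, with a median of 9288 to 19704.5 UMIs against 4326 to 12410. T cell spots were then picked again from marker UMIs thinned to a depth of 2000 UMIs per spot, with shallower spots left out. Only the picking was thinned, and the tested sums kept all UMIs. T cell spots picked in this way were still the deeper ones, by median, in every slice but slice 2 at 7 dpi. Median depth was 7282 against 4923.5 UMIs in slice 1 at 7 dpi and 7698 against 9242.5 in slice 2. At 21 dpi it was 15984 against 10411 and 16461 against 13608.5. In the deleter slices it was 15281 against 10954.5 and 13085 against 12136.5. By this choice Cxcl9 (1.32, adjusted p = 0.00198, edgeR) and Cxcl10 (1.01, adjusted p = 0.0403) remained called, against 0.681% of genes higher. Ccl5 (0.76, adjusted p = 0.0597), Ccl19 (0.63, adjusted p = 0.0971) and Cxcl16 (0.37, adjusted p = 0.199, edgeR) did not, and Ccr7 and Cxcr6 fell out of the test. With the 12-marker T cell list all 7 members tested were called, against 14.8% of genes higher. Cytotoxic markers were 2.18 to 4.74 times as high in T cell spots, macrophage markers 1.32 to 2.15 times, fibroblast markers 0.960 to 1.31 times and neuron markers 0.390 to 0.639 times. B and plasma cell markers were 6.89 and 2.19 times as high at 21 dpi and 4.83 and 3.77 times in the deleter slices, but 0.531 and 0.790 times at 7 dpi. Their part in the differences was not tested.

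**Figure D5:**
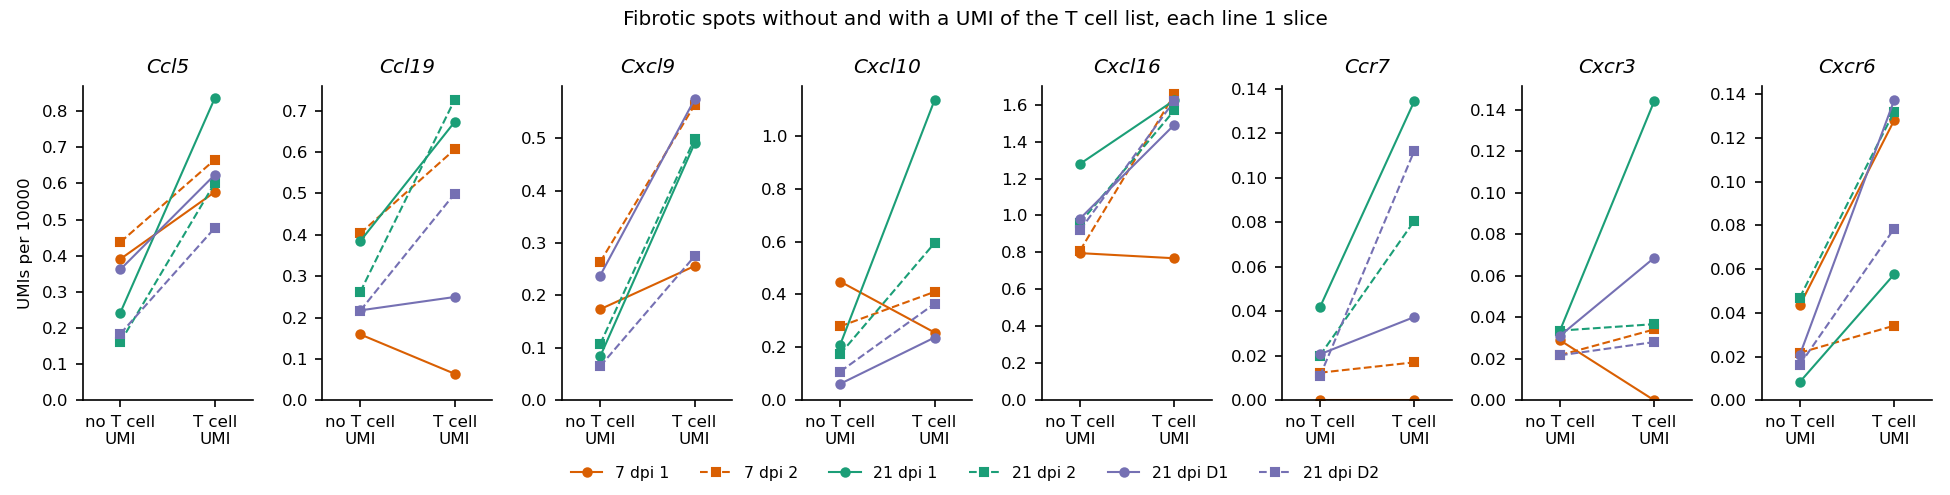
Level of 8 genes (UMIs per 10000, each panel from 0) in fibrotic spots without and with a UMI of the T cell list, each line 1 slice. Ccl5, Cxcl9 and Cxcr6 go up in all 6 slices, and slice 1 at 7 dpi goes down for Ccl19, Cxcl10, Cxcl16 and Cxcr3.

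Marker levels were then read in the spots that held each gene. Fibrotic spots holding a gene were set against fibrotic spots of the same slice without it, and marker levels are given as the median ratio over slices with the lowest and highest slice. Spots with Ccl5 were richest in cytotoxic markers (4.0, 2.25 to 5.99) and in the 12 T cell markers (2.46, 1.68 to 3.50). Spots with Cxcl9 held more T cell markers (2.35, 1.45 to 4.15) and macrophage markers (1.39, 1.20 to 1.74) in 6 of 6 slices. Larger median ratios for Cxcl9, above 1 in 5 of 6 slices each, were those of B and plasma cell markers (3.88, 0.806 to 12.2) and cytotoxic markers (2.76, 0 to 4.14). Spots with Cxcl10 held more microglia markers in 5 of 6 slices (1.27, 0.947 to 1.53) and more fibroblast markers in only 2 of 6 (0.921, 0.549 to 1.34). Larger median ratios for Cxcl10 included those of the 12 T cell markers (1.72, 0.744 to 2.79, above 1 in 5 of 6 slices) and of oligodendrocyte markers (1.64, 0.643 to 2.38, in 4 of 6). Cytotoxic markers (1.61, 0.925 to 2.34, in 5 of 6) and B and plasma cell markers (1.52, 0.663 to 4.81, in 4 of 6) were also among them. Spots with Cxcl16 held more macrophage markers in 6 of 6 slices (3.14, 1.90 to 4.63), and B and plasma cell markers varied from slice to slice (4.10, 0.587 to 6.58). Spots with Ccl19 held more macrophage markers (1.98, 1.42 to 2.44) than those without it in 6 of 6 slices. Fibroblast markers were also higher there in 6 of 6 slices, by a smaller margin (1.38, 1.08 to 1.71). For Ccl19 the 12 T cell markers (1.79, 0.640 to 3.0, above 1 in 5 of 6 slices) and cytotoxic markers (1.77, 0.666 to 3.20, in 4 of 6) also had larger median ratios than fibroblast markers. Cxcr6 went with T cell markers in the 5 slices where it could be compared (3.01, 2.76 to 3.46). Ccl21a went with lymphatic endothelial markers in the 2 deleter slices (4.91, 3.85 to 5.98), with 8 and 6 fibrotic spots holding it. WT slices held too few such spots to compare. All fibrotic spots of the deleter slices held 45 and 43 UMIs of the lymphatic list. Pericyte and smooth muscle (2.03), fibroblast (1.98) and blood endothelial (1.94) markers were also higher with Ccl21a in both. So were dendritic cell (1.69) and cytotoxic (1.21) markers. These ratios are descriptions over spots that share a slice and a library, and spots with a given gene are also deeper.

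Ligand levels were also compared between fibrotic spots with and without a UMI of the matching receptor. In fibrotic spots with Cxcr6, Cxcl16 was 1.70 against 1.01 per 10000 in spots without (slice 2 at 7 dpi), 1.59 against 1.43 and 1.96 against 1.16 (21 dpi), and 1.84 against 1.19 and 1.84 against 1.22 (deleter slices), higher in 5 of 5 slices. Cxcl9 and Cxcl10 together were higher in spots with Cxcr3 in 4 of 5 slices, most in slice 1 at 21 dpi (2.85 against 0.577) and not in deleter slice 1 (0.538 against 0.629). Ccl19 and Ccl21a together were higher in spots with Ccr7 in 4 of 4 slices, between 0.577 against 0.516 and 1.55 against 0.324. In the spots next to receptor-positive ones the order was not the same everywhere: the Cxcr3 ligands were at 0.457 against 0.748 next to spots without Cxcr3 in slice 2 at 21 dpi and 0.162 against 0.429 in deleter slice 2, and the Ccr7 ligands at 0.225 against 0.306 in deleter slice 1. Each comparison rests on 6 to 19 receptor-positive spots a slice, and those spots were deeper (22327.5 against 9378.5 UMIs for Cxcr3 in slice 1 at 21 dpi), so they are descriptions.

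Other genes of the same signalling were read from a list of 44, of which 43 were in the tables (Cxcl11 was not found under that symbol). At 7 dpi 17 of 26 tested were higher in fibrotic spots and 2 lower (22.2% and 20.6% of all genes), and at 21 dpi 22 of 26 were higher and 4 lower (29.0% and 27.4%). The largest at 7 dpi were Ccl8, a monocyte and T cell attractant (log2 fold change 4.19 ± 0.35, adjusted p = 2.33e-05, edgeR), Ccr2, the receptor of inflammatory monocytes (4.13 ± 0.41, adjusted p = 5.03e-05), and Ccr1 (3.36 ± 0.43, adjusted p = 0.000215). At 21 dpi they were Ccl8 (6.16 ± 0.32, adjusted p = 4.08e-07, edgeR), Xcl1, which T and natural killer cells secrete (5.73 ± 1.09, adjusted p = 0.00133), and Ccr2 (4.26 ± 0.39, adjusted p = 1.06e-05). Cx3cl1, made by neurons, was lower at both times (-1.72 ± 0.19, adjusted p = 9.6e-05, and -2.08 ± 0.18, adjusted p = 8.2e-06, edgeR). So was Ccl27a (-1.37 ± 0.22, adjusted p = 0.000894, and -2.43 ± 0.22, adjusted p = 9.56e-06, edgeR). The largest decrease at 21 dpi was that of Ccl17 (-3.28 ± 0.86, adjusted p = 0.00839, edgeR). Ackr1 was also lower at that time (-1.14 ± 0.28, adjusted p = 0.00578, edgeR). The median of the list was 1.45 at 7 dpi and 2.61 at 21 dpi.

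Between the times, the list gave 1 gene higher and 4 lower of 24 in fibrotic spots at 7 dpi (1.90% and 2.50% of all genes). Ccl3, a ligand of Ccr1, was higher (1.32 ± 0.23, adjusted p = 0.0104, edgeR). Ltb, a lymphotoxin chain, was lower (-2.68 ± 0.63, adjusted p = 0.0389), as were Ccl8 (-1.56 ± 0.22, adjusted p = 0.00368) and Cxcl12, the Cxcr4 ligand (-1.54 ± 0.20, adjusted p = 0.00204). In Col1a1-free spots 3 of 22 were higher at 7 dpi (3.01% of all genes), Ccl3 (3.18 ± 0.53, adjusted p = 0.022), the microglial receptor Cx3cr1 (1.31 ± 0.18, adjusted p = 0.0101) and the sheddase Adam17 (1.11 ± 0.21, adjusted p = 0.0333, edgeR). The fibrotic excess differed for 2 of 26, Ifngr1, a chain of the interferon-gamma receptor (-1.23 ± 0.22, adjusted p = 0.0159), and Adam17 (-1.17 ± 0.23, adjusted p = 0.0227, edgeR), both smaller at 7 dpi. In T cell spots 13 of 24 were higher and 2 lower (9.44% and 10.3% of all genes), led by Xcl1 (2.21 ± 0.48, adjusted p = 0.000629), Ltb (1.58 ± 0.40, adjusted p = 0.00295) and Ccr2 (1.01 ± 0.18, adjusted p = 4.88e-05, edgeR).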

How the data were processed

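Mouse brain was measured on 4 Visium capture areas. Per the submitters' processing notes, reads were processed with Space Ranger 2.0.0 on mm10. The authors deposited raw UMI counts for 32285 gene identifiers (32245 symbols) and 9340 spots over tissue, without normalization, with array positions. Barcode, feature, image-scale and position files served as keys only.

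Touching tissue spots formed 2 connected pieces per area, each taken as 1 slice of 1 mouse. Labels do not say which piece was at rest. The smaller piece (1017 spots) was taken as rest and the larger (1726 spots) as 2 dpi, from the outlines in the study's images and not from expression. No test uses either. The 10 members and the lists were chosen with earlier results of these data known.

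UMIs were summed per slice and spot class (fibrotic, at least 5 Col1a1 UMIs per 10000, or Col1a1-free) over 6 slices and tested with edgeR 4.0.16 in R 4.3.3 (TMM, filterByExpr, quasi-likelihood test, Benjamini-Hochberg adjustment over all genes tested, threshold 0.05), with the slice as a block within slices. The deleter slices entered the estimate of the spread. For T cell spots they also entered the log2 fold change, which was fitted over all 6 slices together. The steps were tested on simulated data. Spots are not replicates, so p-values measure the spread between slices, 1 mouse each. Standard errors are on the log2 scale. Levels carry exact Poisson 95% intervals and pooled ratios exact binomial ones, for counting error only, and 0 UMIs allow up to 3 counts. Tables were made with Python 3.11.15, numpy 2.4.6, pandas 2.3.3 and scipy 1.17.1, figures with matplotlib 3.10.9. Gene positions are from GENCODE M21 (GRCm38), promoters from RefSeq (GRCm38.p6). Named genes are the 10 members, pathway genes past the threshold (at most 5 per direction, by size) and, for members with at least 100 UMIs, the 3 genes of at least 200 UMIs with the most similar log2(UMIs per 10000 + 0.01) over the 12 sums; one such gene is not reported here.

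Alternatives were DESeq2 1.42.0, library sizes without TMM, no filter on low counts, a minimum of 10 Col1a1 UMIs per 10000, at least 3 Col1a1 UMIs per spot, all spots under 5 per 10000 as the comparison, spots of at least 1000 UMIs, deleter slices added to 21 dpi or left out, no slice block, at least 2 T cell UMIs, and each slice left out. In a further alternative T cell spots were picked from marker UMIs thinned to a depth of 2000 UMIs, with the tested sums left whole. A T cell list without Trbc2, Skap1 and Cd6, which the slice at rest also held, was added after the data were seen. The authors' spot-level MAST test, clusters and scores were not used. No doublet caller or deconvolution was run.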

Additional observations from a re-analysis of the deposited data

Results flagged for a closer look

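2 members had a fibrotic excess that differed between 7 and 21 dpi by the test of the difference itself, an edgeR contrast over 2 against 2 slices. For Cxcl10 the difference of the log2 fold changes was -3.65 (adjusted p = 0.01) and for Cxcl16 it was -2.26 (adjusted p = 0.00667, edgeR), each smaller at 7 dpi. In Cxcl10 the excess was 1.25 at 7 dpi and 4.90 at 21 dpi, and in Cxcl16 it was 2.11 and 4.37. Time cannot be told apart from capture area in either.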

How the results depend on the processing

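Of 696 member values under the alternatives, 645 kept direction and side of the threshold, 15 lost the call, 16 gained it and 20 changed sign. No paired analysis was possible because the labels give no replicate numbers shared between the groups; the slice block compares spot classes within a slice. The members called for the difference of the fibrotic excess went from 2 to 4 with no filter on low counts, to 0 with all spots under 5 Col1a1 UMIs per 10000 as the comparison, and to between 0 and 2 with a slice left out (0 without slice 1 at 7 dpi). Between times, the count went from 0 to 1 in fibrotic spots with no filter, and in Col1a1-free spots from 0 to 2 (DESeq2), 4 (no filter), 2 (deleter slices added) and 0 to 1 (a slice left out). For T cell spots it went from 7 to 3 without the slice block, 2 after thinning, and 6 to 7 with a slice left out. Over all genes, no filter gave 1474 of 22065 for the difference, 1316 of 20319 in fibrotic and 1701 of 21039 in Col1a1-free spots. In Col1a1-free spots DESeq2 called 547 and the fit with deleter slices added 1121, each of 14147 genes. For T cell spots 161 of 11196 genes were called without the block and 160 of 10433 after thinning.

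Changes of sign fell on members that were not called. For fibrotic spots at 21 dpi, Ccl21a was at -2.98 with at least 10 Col1a1 UMIs per 10000 and -3.45 and 1.65 with a slice left out. For the difference of the excess, Ccl19 was at 0.0046 with deleter slices added, 0.28 without the block and -0.84 to 0.38 with a slice left out. Ccl21a was at -0.13 with deleter slices added and -0.19 to 5.70 with a slice left out, Cxcl9 at -6.27 to 0.39 with a slice left out, and Cxcr6 at -0.21, -0.47 and -0.20 to 0.68 in these 3 settings. Between times in fibrotic spots, leaving a slice out gave -0.14 to 0.35 for Ccl5, -0.54 to 0.26 for Cxcl9 and -1.46 to 0.020 for Cxcr6, DESeq2 gave -0.029 for Cxcl9, and Cxcl10 was at 0.32 with at least 10 Col1a1 UMIs per 10000 and 0.011 with deleter slices added. The cause was not tested.

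Counts over all genes also moved by over 1.5 times: at 7 dpi from 6193 to 3040 without slice 2; for the difference from 443 to between 0 (spots under 5) and 1474 (no filter), with 128 to 227 without one of 3 slices; in fibrotic spots from 584 to between 221 and 1316; in Col1a1-free spots from 444 to between 111 and 1701; and for T cell spots from 2431 to 161 without the block and 160 after thinning. For T cell spots the count was also 1490 by DESeq2, 1297 with at least 10 Col1a1 UMIs per 10000 and 1295 with the deleter slices left out. Thinning left fewer T cell spots, 15 against 58 in slice 1 at 21 dpi, so low members have little power there. The spots that lost their T cell UMIs were counted among the other fibrotic spots, 155 against 112 in that slice. Deleter slices cannot be added for T cell spots, which have no time groups, and slice 1 at 7 dpi had 0 spots with at least 2 T cell UMIs. Cxcl13, Ccl21a and the receptors, with 55 to 149 UMIs in all, are limited by depth.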

Other observations

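Genes whose levels ran most alike over the 12 sums (fibrotic and Col1a1-free spots of 6 slices) are given as a description, since the 12 points share slices and are split by 1 contrast. Among 12721 genes, Cxcl16 ran most like Fcgr2b, an inhibitory Fc receptor of macrophages and B cells (Pearson r = 0.997), then Slc39a1 (0.996) and Apobec3 (0.995). Cxcl9 ran most like Il7r, the interleukin-7 receptor of T cells (0.982), and next like Ccl5 (0.981). Ccl19 ran most like Vasn (0.981) and Mmrn2 (0.980), and Ccl5 like Tor3a (0.987), Rest (0.986) and Casp4 (0.985). The likeness of Cxcl10 to its nearest genes was lower, with Plekha2 (0.973), Hint3 (0.967) and Tmco1 (0.964). For Cxcr6 they were BC004004 (0.973), Tgfb3 (0.964) and Mdc1 (0.963).

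B and plasma cell markers summed to 0.331 and 0.296 UMIs per 10000 in fibrotic spots at 7 dpi, to 9.29 and 13.2 at 21 dpi and to 12.9 and 35.6 in the deleter slices. Cxcl13, the B cell attractant, had 1 to 6 UMIs in the same spots of each slice.

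At the tissue edge of the slice at rest, Ccl19 was at 0.0746 UMIs per 10000 (12 UMIs in 141 spots), against 0.0129 (19 UMIs) in the interior, and Cxcl16 was at 0.0373 against 0.00881. At 2 dpi Ccl19 was at 0.149 at the edge against 0.0364. With 1 slice each there is no replicate check.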
